A study of Mus musculus with 2 samples.

Results

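Of 38355 genes listed for mouse ventricle, 6 were taken by symbol for their part in pacemaking, background potassium current and cyclic AMP sensing. They were the hyperpolarisation-activated channels Hcn2 and Hcn4, the two-pore potassium channel Kcnk3, and the Popeye family of Bves (also called Popdc1), Popdc2 and Popdc3. Each symbol stood in a single row, and all 6 were among the 13230 genes with an adjusted p-value. The study sequenced RNA from cardiac ventricles of C57BL/6 mice and asked what removing the T-box factor Tbx5 from adult ventricle does. Its Flox mice were Tbx5LDN/LDN, and its vTBX5KO mice were Myh6-MerCreMer, Tbx5LDN/LDN. Myh6-MerCreMer is a transgene that drives an inducible Cre recombinase from a cardiomyocyte promoter, so the groups also differ in the presence of Cre. According to the labels, animals of both genotypes were given TX, 30 mg/kg/day on 3 days at an age of 12 weeks, and their ventricles were taken 4 weeks later, at 16 weeks. The labels name 1 sample per genotype, and the sources used here do not say whether animals were pooled.

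The values come from the authors' deposited table, which compares a group B with a group A. No label says which letter is the knockout, and no genotype was assigned from expression, so every direction below is that of group B relative to group A. Reads of 6 libraries, 3 per letter, could be recovered for genes with a mean normalized count under 100, and their size factors ran from 0.61 to 1.56. For Tbx5 the authors' deposited table gave a log2 fold change of 0.92 and an adjusted p of 0.0575. That value covers the whole gene, and the deleted part is not given in the labels, so it does not settle the letters. In bulk tissue, fewer cells of a type and less RNA per cell cannot be told apart.

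HCN channels open when the membrane becomes more negative, carry an inward current that drives the next beat in pacemaker cells, and bind cyclic AMP directly, which makes them open more readily. Hcn4 is the main form of the sinoatrial node and the conduction system and is low in adult working ventricle, while Hcn2 is found across the heart. Kcnk3 encodes TASK-1, a potassium channel that is open at rest and helps set the resting potential. Popeye proteins are membrane proteins of heart and skeletal muscle that also bind cyclic AMP, and mice without Bves or without Popdc2 develop slow heart rates under stress.

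Among the 6 genes, Popdc2 fell in group B and no other member changed at the threshold, an adjusted p under 0.05 in the authors' deposited table. Popdc2 was 1.34-fold lower, and the values of the other 5 lay between 1.47-fold lower for Hcn4 and 1.20-fold higher for Hcn2 in the authors' deposited table. Thus 1 of 6 members was called lower and 0 were called higher, while 2.49% of all tested genes were called lower, 1.5% higher and 3.98% in either direction. The median log2 fold change of the members was -0.13, and that of all tested genes was -0.00035. Whether any member's fold change differed from another's was not tested.

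**Figure D1:**
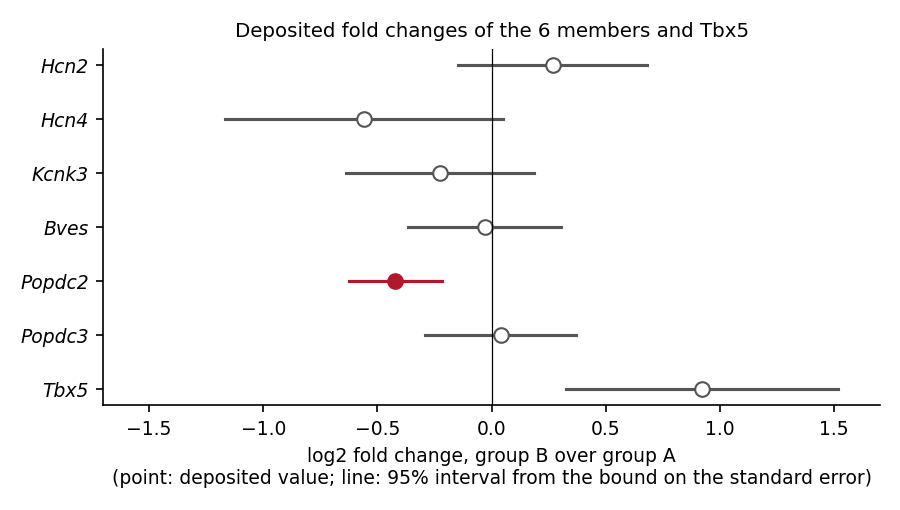
Log2 fold change of group B over group A for the 6 members and Tbx5, with a 95% interval from the upper bound on the standard error; the filled point has an adjusted p under 0.05. The interval of Popdc2 (-0.63 to -0.22) lies below 0, and those of the other 5 members cross 0; that of Tbx5 does not, but its adjusted p was 0.0575.

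The levels of the 6 genes spanned a wide range. Per kilobase of the longest coding transcript, Popdc2 was the highest, at a mean normalized count of 3209 per kb. Kcnk3 followed at 670 per kb, Popdc3 at 257, Bves at 220, Hcn2 at 129 and Hcn4 at 15.6 per kb. On this scale the level of Popdc2 was 14.6 times that of Bves and 12.5 times that of Popdc3. The level of Hcn2 per kb was 8.32 times that of Hcn4. These are means over all libraries of both groups, so no spread is attached to them and neighbours in the order, such as Popdc3 and Bves, cannot be told apart from them.

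The Popeye family showed a lower value for its most abundant member and values near 0 for the other two. Popdc2 (ENSMUSG00000022803, chromosome 16, 38362209 to 38378216 on GRCm38, plus strand) encodes a Popeye protein of cardiac and skeletal muscle. The authors' deposited table gave it a mean normalized count of 6960, at percentile 97.7 of tested genes. There Popdc2 had a log2 fold change of -0.42 (adjusted p = 0.00293, DESeq2, from the authors' deposited table), which implies a standard error of at most 0.10. The interval of the fold, B over A, ran from 0.648 to 0.859. This was a small change among called genes, and 74 of the 329 genes called lower had a smaller absolute log2 fold change. The bound on its standard error was lower than that of all but 2.94% of tested genes. Calls were also more frequent at such levels: 17 of 168 genes (10.1%) with a mean within a factor of 1.25 of Popdc2 were called in either direction, and 7.48% of genes in the top decile of means. At a mean above 100 the reads per library of Popdc2 could not be recovered.

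Bves (ENSMUSG00000071317, chromosome 10, 45335762 to 45369708 on GRCm38, plus strand) encodes the family member that was named for its expression in vessels and epicardium and is present in cardiomyocytes. The authors' deposited table gave it a log2 fold change of -0.03 at a mean of 963 (adjusted p = 0.972). Its interval of -0.37 to 0.31 on the log2 scale leaves room for a fall to 0.776 or a rise to 1.24 times group A. Popdc3 (ENSMUSG00000019848, chromosome 10, 45178098 to 45318452) lies on the same strand, and 17309 bases separate its end from the start of Bves. The authors' deposited table put its log2 fold change at 0.04 and its mean at 477 (adjusted p = 0.962), and the interval was -0.29 to 0.37. Popdc3 overlaps Gm15934 on the other strand, whose mean normalized count of 7.03 was 1.47% of that of Popdc3. Bves and Popdc3 thus share a locus and had values close to 0. The Popdc2 value of -0.42 lies outside both of their intervals, but its own interval of -0.63 to -0.22 overlaps both. The differences were not tested.

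The RefSeq promoter windows of build GRCm38.p6, from 250 bases before to 50 after the RefSeq start of a gene, are shown for the called member Popdc2 and for Hcn4, the pacemaker channel, because the study removes a T-box factor. Entries were given for 3 members, Hcn2, Hcn4 and Popdc2. Capitals mark matches to any of the motifs named below, on either strand. The Popdc2 window is chr16:38361940-38362239 and the Hcn4 window chr9:58822699-58822998, both read on the plus strand. The RefSeq start is 38362190 for Popdc2 and 58822949 for Hcn4, 19 and 563 bases before the starts in the authors' deposited table, so the Hcn4 window lies wholly before the start that the table gives.
Popdc2: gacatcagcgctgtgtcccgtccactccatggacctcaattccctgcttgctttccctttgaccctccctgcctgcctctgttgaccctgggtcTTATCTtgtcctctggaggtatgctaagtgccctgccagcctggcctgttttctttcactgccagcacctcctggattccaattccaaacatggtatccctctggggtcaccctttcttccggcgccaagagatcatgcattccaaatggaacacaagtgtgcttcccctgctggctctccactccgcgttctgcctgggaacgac
Hcn4: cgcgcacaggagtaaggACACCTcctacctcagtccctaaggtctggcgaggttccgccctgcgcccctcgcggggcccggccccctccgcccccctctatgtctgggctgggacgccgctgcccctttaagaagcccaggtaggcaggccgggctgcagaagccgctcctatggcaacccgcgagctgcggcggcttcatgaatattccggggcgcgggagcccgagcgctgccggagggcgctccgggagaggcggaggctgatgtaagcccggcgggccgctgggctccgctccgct
The T-box letters AGGTGT were searched on both strands and are held by 13.7% of 32851 windows. They matched once in the Hcn4 window, as ACACCT starting 233 bases before the RefSeq start, and not in the windows of Popdc2 and Hcn2. The GATA letters NGATAA, held by 25.3% of windows, matched once in the Popdc2 window, as TTATCT starting 156 bases before the RefSeq start, and not in those of Hcn2 and Hcn4. The NKX2-5 letters TNAAGTG (11.5% of windows) and the cyclic AMP response element TGACGTCA (1.79% of windows) matched in none of the 3 windows. No matches overlapped. The windows of Hcn2 and Hcn4 were rich in G and C, at 72.3% and 71.7%, while that of Popdc2 stood at 56.0%, against a median of 52.7% over all windows. These matches describe letters and say nothing of binding.

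**Figure D2:**
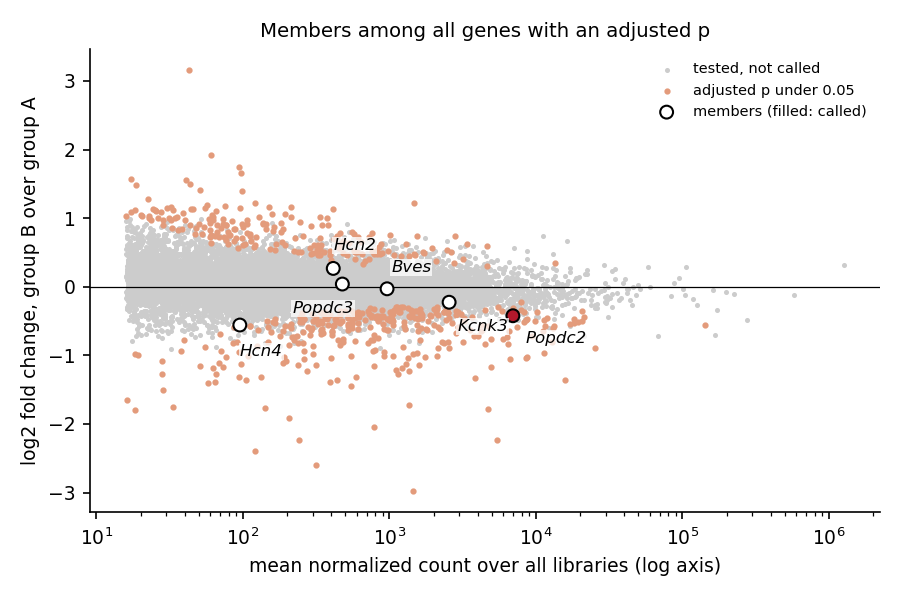
Mean normalized count over all libraries (log axis) against log2 fold change of group B over group A for the 13230 genes with an adjusted p. Popdc2, the filled member, lies at a high mean (6960) among the genes called lower, and Hcn4 has the lowest mean (95.2) and the lowest fold change of the members.

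The HCN channels stood on opposite sides of 0 and neither passed the test. Hcn2 (ENSMUSG00000020331, chromosome 10, 79716634 to 79736108 on GRCm38, plus strand) was the more abundant ventricular form. The authors' deposited table gave a log2 fold change of 0.27 at a mean of 413 (adjusted p = 0.654), with an interval of -0.15 to 0.68. Hcn4 (ENSMUSG00000032338, chromosome 9, 58823512 to 58860955 on GRCm38, plus strand) had the lowest fold change of the 6 genes. The value in the authors' deposited table was -0.56 on the log2 scale at a mean of 95.2 (adjusted p = 0.406). Its interval of -1.17 to 0.05 allows a level in group B from 0.446 to 1.03 times that in group A. The bound on its standard error, 0.31, was above the median of 0.22 for 1042 genes of like level. Of 727 tested genes with a log2 fold change at least as large in size, 405 were not called.

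Hcn4 was the only member whose reads could be followed in each library. Its mean of 95.2 resolved into 2 sets of whole reads. In 1 of them group B was above group A, with a log2 ratio of 0.37, against the sign of the deposited fold change, and the other set was used. Among 1517 genes with a single set, a mean of at least 20 and a deposited log2 fold change of at least 0.2 in size, 100% had group means with the deposited sign. The normalized reads of Hcn4 were 141 in A1, 95.5 in A2 and 128 in A3, and 116 in B1, 58.4 in B2 and 31.4 in B3. Groups overlapped, because B1 was above A2, and the libraries of group B were spread over a wider range than those of group A. Group A averaged 122 ± 23.5 and group B 68.7 ± 43.4 (SD, n = 3 libraries each), a ratio A over B of 1.77. Its direction was used to choose the set of reads and is no support for the deposited one. An exact permutation test of the means, two-sided, gave p = 0.20, where 0.10 is the smallest that 3 against 3 allows. In the limma-voom fit over 5356 genes the log2 fold change of Hcn4 was -0.90 ± 0.36 (SE; adjusted p = 0.297), and this fit called 0.485% of genes. Without B1 the ratio was 2.71 and the limma-voom adjusted p was 0.0330, and without a filter on low means it was 0.0335, so the call depends on these choices. Without B3 the ratio was 1.39.

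The genes most like Hcn4 over the 6 libraries, by Pearson r of log2 normalized reads among 2972 genes, were Rhno1 (r = 0.996), Btbd11 (r = 0.988) and Smagp (r = 0.982). These values describe 6 points that share libraries, size factors and groups, from the best of many genes. They rest on the set of whole reads chosen for Hcn4, and likeness to the other set was not computed. Rhno1 had 101, 87.9 and 102 normalized reads in A1, A2 and A3 and 97.1, 69.5 and 48.3 in B1, B2 and B3. As in Hcn4, B3 was the lowest library and B1 was above A2 in all 3 genes, an order that their choice by r builds in. Their log2 fold changes were smaller in size, at -0.35, -0.34 and -0.33, and none was called in the authors' deposited table.

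**Figure D3:**
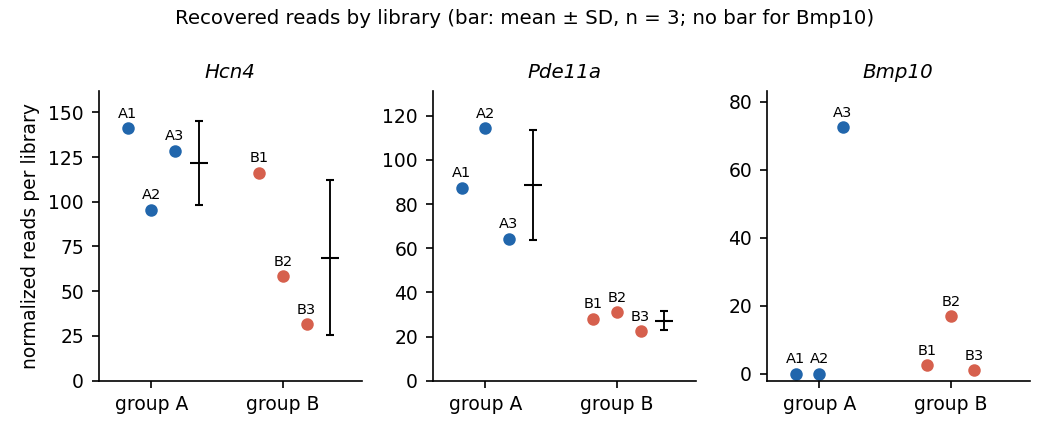
Recovered normalized reads in each library of groups A and B for Hcn4, the phosphodiesterase Pde11a and the atrial marker Bmp10; bars give the mean and SD of 3 libraries, with no bar for Bmp10. Hcn4 ranges from 31.4 to 116 in group B and overlaps group A, Pde11a does not overlap, and A3 alone is high for Bmp10.

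The library A3 stood apart for the atrial factor Bmp10, at 72.5 normalized reads against 0 in A1 and A2 and 1.12 to 17.0 in group B. Bmp10 was the only 1 of 7 atrial markers with recovered reads, so the others could not be compared between libraries. For Hcn4, whose A3 value of 128 lay below that of A1, the ratio A over B without A3 was 1.72. Whether atrial tissue had a part in the Hcn4 values was not tested. Hcn3 was listed in the authors' deposited table at a mean of 2.91, without an adjusted p.

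Kcnk3 (ENSMUSG00000049265, chromosome 5, 30588170 to 30625270 on GRCm38, plus strand) was the second most abundant member per kilobase. The authors' deposited table gave a log2 fold change of -0.23 at a mean of 2554 (adjusted p = 0.726), and its interval was -0.64 to 0.19. The bound on its standard error of 0.21 was above the median of 0.16 for 484 genes of like level, of which 7.02% were called. Of 13 other two-pore channel genes listed, 3 were tested and 0 were called in the authors' deposited table. The list median was 0.05. Kcnk2, the TREK-1 channel that Popeye proteins are known to bind, stood at 0.26, Kcnk13 at 0.05 and Kcnk6 at 0.01, all as given in the authors' deposited table. The reads of Kcnk2 were 40.7, 21.4 and 32.9 in A1, A2 and A3 and 57.5, 41.4 and 22.5 in B1, B2 and B3, so the groups overlapped.

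Genes that make or read cyclic AMP were counted together with phosphodiesterases of cyclic nucleotides, including Pde5a, which is specific for cyclic GMP. Partners of the HCN and Popeye proteins, other two-pore channels and sinoatrial transcription factors were added to the count. Over all 9 of these lists, 70 of 90 genes were tested in the authors' deposited table, and in group B 4 of them fell, 2 rose and 64 were not called. That is 8.57% called, beside 3.98% of all tested genes and 7.48% of those in the top decile of means. The difference was not tested, and the lists were chosen with earlier results of these data known. The median log2 fold change was 0.03. The genes that fell came from 4 different lists. Among 10 tested partners of Popeye proteins, Ndrg4, a cardiac protein reported to bind Bves, fell by 0.72 on the log2 scale (adjusted p = 0.00358 in the authors' deposited table). The other 9 partners were not called, and the caveolin Cav3 stood at -0.00071 there, while the list median was 0.03. Of 7 tested adenylyl cyclases, Adcy5, a main cardiac form, fell by 0.45 on the log2 scale (adjusted p = 0.00397 in the authors' deposited table), against a list median of -0.05. Of 10 tested genes of protein kinase A and Epac, Pkig, an inhibitor of the kinase's catalytic subunit, fell by 1.02 on the log2 scale, a 2.03-fold difference (adjusted p = 1.06e-13 in the authors' deposited table). The list median was -0.03, and no catalytic or regulatory subunit was called.

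Phosphodiesterases, which degrade cyclic nucleotides, went both ways. Of 18 tested, 1 fell, 2 rose and 15 were not called in the authors' deposited table, with a list median of 0.10. Pde11a, which degrades both cyclic AMP and cyclic GMP, had 87.4, 114 and 64.2 normalized reads in A1, A2 and A3. It had 28.1, 31.0 and 22.5 in B1, B2 and B3, so every library of group B was below every library of group A. The means were 88.7 ± 25.1 and 27.2 ± 4.36 (SD, n = 3 libraries), a ratio A over B of 3.26. The authors' deposited table gave a log2 fold change of -1.41 (adjusted p = 3.60e-06). The limma-voom fit gave -1.66 ± 0.27 (SE; adjusted p = 0.0127). Pde5a, specific for cyclic GMP, rose by 0.57 on the log2 scale in the authors' deposited table (adjusted p = 0.0298). The calmodulin-dependent Pde1c rose by 0.34 there (adjusted p = 0.0459). Neither rise passed at an adjusted p under 0.01.

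The remaining lists had 0 calls in the authors' deposited table. Of the HCN family and its partners, 5 of 8 were tested with a median of 0.34. They included Flna, a cytoskeletal linker, at 0.36 with an adjusted p of 0.0676, Lrmp, which alters the response of HCN4 to cyclic AMP, at 0.34, and Pex5l, an HCN subunit that limits that response, at 0.36 in the authors' deposited table. The A-kinase anchors, which place the kinase near its targets, had a median of 0.07 over 11 tested genes. The authors' deposited table put Akap1 at -0.24, Akap11 at 0.22 and Akap5 at -0.38. The median of 5 tested G protein subunits was -0.15, and the authors' deposited table put Gnai2 at -0.34, Gnao1 at 0.28 and Gnas at -0.15. The transcription factors of the sinoatrial node had a median of 0.09 over 4 tested genes. Tbx18 stood at 0.09, Shox2 at 0.15 and Tbx2 at 0.09 in the authors' deposited table.

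**Figure D4:**
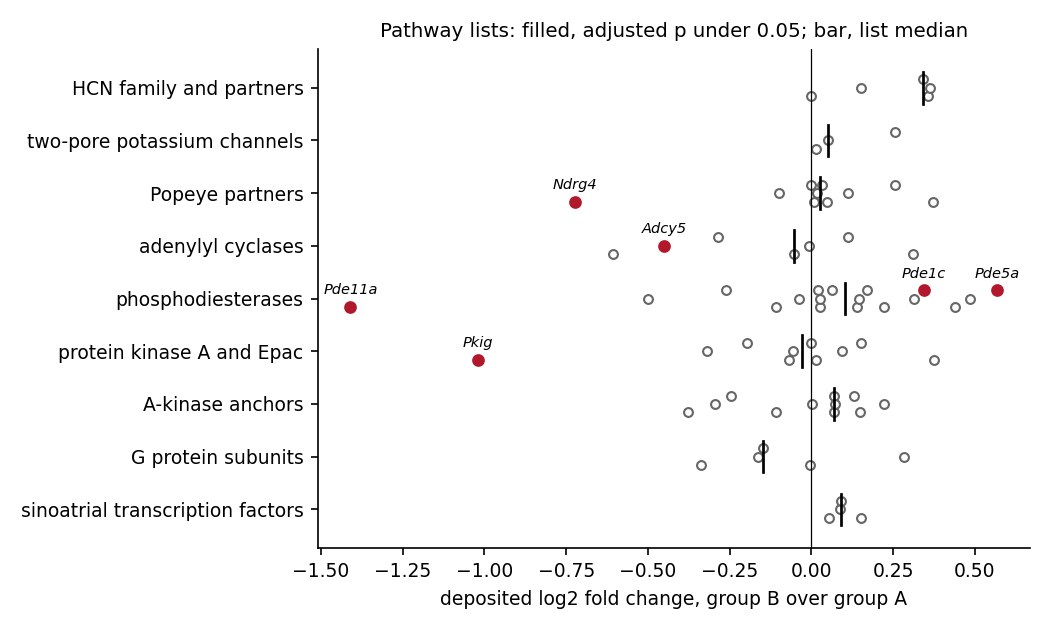
Deposited log2 fold change of group B over group A for each tested gene of the 9 lists (points; filled at an adjusted p under 0.05) with the list median (bar). The called genes are Ndrg4, Adcy5, Pde11a and Pkig on the lower side and Pde1c and Pde5a on the higher side, and list medians run from -0.15 to 0.34.

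The label of ventricle was checked by the levels of markers. Per kilobase, the mean normalized count over all libraries was 186555 for Myl2, the ventricular light chain, and 1662 for Myl7, the atrial one. The 7 atrial markers reached at most 2433 per kb (Nppa), while the 8 ventricular cardiomyocyte markers, most of which atrial cells also express, were at 4019 per kb (Ryr2) or above. Between the groups, 1 of 8 ventricular markers (Actc1, log2 fold change -0.55) was called lower in the authors' deposited table. Myl2 at -0.70 (adjusted p = 0.0572) and Ryr2 at -0.71 (adjusted p = 0.0671) lay just above the threshold there. Of the 8 ventricular markers 7 were below 0, Myl3 was above it at 0.13, and the list median was -0.13. The authors' deposited table called 0 of 5 tested atrial markers. Of 6 tested conduction cell markers, the calcium channel gene Cacna1g was called lower, with a log2 fold change of -1.15 (adjusted p = 0.00169) in the authors' deposited table. The connexin gene Gja5 stood at -0.56 and Cntn2 at -0.46, on the same side as Hcn4, and neither was called in the authors' deposited table. On the other side the authors' deposited table had Cacna1d at 0.55, Shox2 at 0.15 and Tbx3 at 0.05, none of them called. Reads were recovered for 4 conduction markers (Isl1, Shox2, Cacna1d and Cpne5), and not for those 3 with values below 0. Their sums of 59.7 to 110.4 normalized reads in group A and 88.7 to 139 in group B overlapped. Of 4 tested markers of nerve and Schwann cells, the authors' deposited table called Dbh and Uchl1 lower. Over the list, 5 members with recovered reads summed to 148 to 178 in group A and 97.1 to 98.8 in group B. Skeletal muscle markers, a tissue that also holds Popeye proteins, summed over 5 members to 45.9 to 57.7 in group A and 32.0 to 43.8 in group B. Without Tnni2, which was left out after its values were seen, the sums were 25.1 to 28.9 and 27.5 to 35.9 and overlapped. The mean of Tnni2 was 25.2 ± 4.44 normalized reads for group A against 5.59 ± 1.97 for group B (SD, n = 3 libraries each), with a limma-voom adjusted p of 0.0331. The authors' deposited table called 0 of 3 tested skeletal markers and put Acta1 at 0.51, Myh2 at -0.21 and Myh7 at -0.16. Their means were 8649, 201 and 30894. The 5 members with recovered reads had means from 3.42 (Myh4) to 15.4 (Tnni2) and no adjusted p there, so the 0 calls do not cover them. The part of these cell types in the Popdc2 and Hcn4 values was not tested. Smooth muscle, fibroblast and endothelial markers had 0 calls, macrophage markers 1 higher call of 5 in the authors' deposited table, and the 3 lung markers summed to at most 4.43 in any library. No marker found in the authors' deposited table was at 0.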

How the data were processed

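RNA from cardiac ventricles was sequenced. The submitters' processing notes list Bowtie2 2.0, DESeq2 and build mm9 without roles. The sources used here do not say how reads were counted or whether strand was kept. Per the file headers, the authors deposited for each gene a mean normalized count (a signal pooled over both groups), a log2 fold change and a p-value adjusted over genes. The headers do not say that the fold change is shrunken towards 0, which was read from the values. For Pde11a the deposited value was -1.41, and the log2 ratio of the recovered group means was -1.70. Genomic span, another deposited column, was not analysed. Coordinates are the table's, and 25481 of 36602 gene IDs (69.6%) matched GENCODE M21 of GRCm38 exactly, as did 3 of the 6 members.

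The adjusted p-values were inverted over 13230 genes to the largest p each allows, and with a Wald test assumed this gave an upper bound on the standard error. Whole reads were recovered where a deposited mean under 100 equalled a sum of 6 library steps within the rounding of its 15 digits. Of 13403 such genes, 13386 (99.9%) had exactly 1 set. The sign of the fold change of genes with a single read gave each library's letter, and libraries are numbered by depth. The scripts were tested on simulated data. Library totals were not recovered. limma 3.58.1 (voom) in R 4.3.3 was fitted to recovered reads with a mean of at least 5. The planned count test by genotype was not used, as there is no count column or genotype map. Whether libraries of a letter are separate animals is not stated, and p-values may therefore reflect technical spread alone.

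Genes named are the 6 members, Tbx5, list members called or up to 3 with the smallest adjusted p, and the 3 genes most like Hcn4. Cav3, Hcn3, Bmp10, the kinase subunits and the markers were added after their values were seen. Members and lists were chosen with earlier results of these data known. Alternatives were other thresholds, scalings and filters, and libraries left out. A gene that stood in 3 of the lists is not reported here and was left out of their counts.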

Additional observations from a re-analysis of the deposited data

How the results depend on the processing

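Popdc2 was the 1 member called lower at adjusted p thresholds of 0.01, 0.05 and 0.1 in the authors' deposited table, and 0 were called higher. Subtracting the median of all tested genes left the sign of each member's fold change as it was. Over all genes the authors' deposited table gave 294 calls at 0.01 (197 lower, 97 higher), and 307 higher calls at 0.1. In the top decile of means, a background chosen after seeing the data, 7.48% of genes were called. The lists had 0 higher calls at 0.01 and 4 at 0.1. The limma-voom count of 26 called genes (707 at an unadjusted p under 0.05) became 212 with no filter on low means, and 0 to 171 with a library left out. The count was 2 without A1, 0 without A2 (461 at an unadjusted p under 0.05), 48 without B1, 3 without B2 and 171 without B3. The cause was not tested. The limma-voom log2 fold change of Hcn4 ran from -1.41 to -0.55 with a library left out, and its adjusted p from 0.0330 to 0.667. With no filter on low means it was -0.87 at an adjusted p of 0.0335. With the other set of whole reads, an alternative chosen after seeing the data, it was 0.95 at an adjusted p of 0.700. Alternatives on recovered reads could not be run for the 5 members with means above 100, so leaving out a library could not be tried for Popdc2. No paired analysis was possible because the labels give 1 sample per genotype and no pairing of libraries. Hcn4 had 28 to 182 whole reads per library. Its lowest library, B3, had a size factor of 0.89, above those of A2 (0.80) and A3 (0.61). Those of B1 and B2 were 1.56 and 1.35. Within group B the normalized reads of Hcn4 fell in the order of the size factors, at 116, 58.4 and 31.4 in B1, B2 and B3. Within group A they did not, as A3 had the smallest size factor and, at 128, more normalized reads than A2 at 95.5. Whether depth had a part in these values was not tested.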
